A study of Mus musculus with 12 samples.

Results

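Receptors for leukotrienes and prostaglandins, and the membrane channel Aqp9, were followed in CD4+ T cells of mice on the GeneChip Mouse Genome 430 2.0 array of Affymetrix. The set holds 7 genes, Cysltr1, Ltb4r1, Ptger2, Ptger4, Ptgdr2, Ptgir and Aqp9. They were taken as every probe set that the array's probe annotation assigns to a listed gene and to no other, which gave 10 probe sets out of 45037, and 7 genes out of 18193. Cysltr1, Aqp9 and Ptger2 were chosen by their intensities on these arrays, since they had changed strongly in an earlier analysis. Differences between SKG and BALB are therefore given for all members as a description, with no p-value: the contrast of that analysis is not recorded, and this one was taken as used.

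The arrays fall into 4 groups of 3, all from female mice. In the SKG group, FR4- CD4+ T cells were sorted from lymph nodes of SKG mice, which carry a mutated Zap70 on a BALB/c background and develop autoimmune arthritis. The BALB group held the same kind of cells from BALB/c mice, but the label of BALB replicate 1 gives CD4+ cells of spleen and LN and no FR4 sort. FR4 is a folate receptor that marks many regulatory T cells. Cells of both groups came from mice aged 40 weeks and were stimulated with PMA, which activates protein kinase C, and ionomycin, which raises cytosolic calcium. In the IFNg KO transfer group, CD4+ T cells of IFNg KO BALB/c mice had been placed in RAG2 KO BALB/c hosts, which make no T or B cells of their own. In the IL-6 KO transfer group, CD4+ T cells of IL-6 KO BALB/c mice had been placed in hosts lacking both IL-6 and RAG2. The transferred cells were taken from the spleen 7 days after transfer, at an age of 7 weeks, and their labels name no stimulation. The transfer groups thus differ from each other in the genotype of donor and of host, and from the SKG and BALB groups in age, tissue, labelled stimulation and host.

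Leukotrienes and prostanoids are made from arachidonic acid that phospholipases A2 release from membranes. The lipoxygenase branch yields leukotriene B4, a chemoattractant, and the cysteinyl leukotrienes, and the cyclooxygenase branch yields prostaglandins. Their receptors are G-protein-coupled: the prostaglandin E2 receptors EP2 (Ptger2) and EP4 (Ptger4) and the prostacyclin receptor (Ptgir) raise cyclic AMP, whereas the cysteinyl leukotriene receptor 1 (Cysltr1) acts mainly through Gq and calcium. In CD4+ T cells, prostaglandin E2 can damp activation and can also favour Th17 cells through EP2 and EP4. Aqp9 is an aquaglyceroporin, a channel that passes water, glycerol and other small solutes.

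The stimulus given to the SKG and BALB cells activates the factors AP-1 and NFAT, and the start regions of Ptger2 and Aqp9 are shown because both genes stood apart by group and hold letters of such a motif. RefSeq start regions of GRCm38.p6 were matched for 6 of the 7 members, all but Cysltr1. The 250 bases before each start were searched on both strands for AP-1 (TGANTCA) and for an NFAT core (TTTCCA). Capitals mark the matches.
Ptger2, chr14:44987861-44988110, plus strand: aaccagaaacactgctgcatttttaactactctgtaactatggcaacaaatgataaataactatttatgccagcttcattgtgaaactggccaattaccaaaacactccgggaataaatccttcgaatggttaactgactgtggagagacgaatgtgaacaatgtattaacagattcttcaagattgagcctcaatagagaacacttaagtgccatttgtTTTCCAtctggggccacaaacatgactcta
Aqp9, first start site, chr9:71162634-71162883, minus strand: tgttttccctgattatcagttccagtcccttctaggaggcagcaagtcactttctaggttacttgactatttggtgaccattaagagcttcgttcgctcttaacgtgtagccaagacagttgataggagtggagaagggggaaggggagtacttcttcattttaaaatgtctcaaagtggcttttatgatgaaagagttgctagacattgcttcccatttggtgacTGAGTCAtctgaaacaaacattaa
Aqp9, second start site, chr9:71163290-71163539, minus strand: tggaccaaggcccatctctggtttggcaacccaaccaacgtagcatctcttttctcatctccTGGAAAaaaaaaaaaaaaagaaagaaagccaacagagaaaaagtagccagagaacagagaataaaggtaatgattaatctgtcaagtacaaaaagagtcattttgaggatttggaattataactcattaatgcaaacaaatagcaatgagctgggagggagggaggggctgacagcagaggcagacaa
The Ptger2 region holds the NFAT letters from 30 to 25 bases before the start. The first Aqp9 start site has the AP-1 letters from 24 to 18 bases before it, and the second has the reverse NFAT letters from 188 to 183 bases before it. Ptger4 also holds the NFAT letters, and Ltb4r1, Ptgdr2 and Ptgir hold neither. The AP-1 letters occur in 6.75% and the NFAT letters in 18.6% of the 32851 start regions of that length, so a match is a description of the sequence alone. Also searched, with no match in these 6 genes, were the cyclic AMP response element TGACGTCA (in 1.55% of all regions), its core TGACG, which overlaps it (17.8%), the nuclear receptor core AGGTCA (14%), TTCNNNGAA for STAT factors (7.02%), AGATAA for GATA factors (9.99%) and GGGNNTTCC for NF-kB (4.98%).

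Values below are deposited intensities in replicates 1, 2 and 3, followed by group means of log2(intensity + 16) after quantile normalization of the 12 arrays. A difference of 1 on that scale is a doubling, and the added constant understates the change of a dim probe set. Trimmed mean intensities lay between 161 and 232. Replicate 3 of both transfer groups stood apart in RNA quality: the 3'/5' ratio of Gapdh was 7.99 in IFNg KO and 9.33 in IL-6 KO replicate 3, against 2.42 to 3.28 on the other 10 arrays. The 3'/5' ratio of actin moved with the other contrast: it was 1.93 to 2.63 in SKG and 2.95 to 3.98 in BALB, with no overlap, and its part in the SKG and BALB differences was not tested. It was 1.60 to 1.67 in replicates 1 and 2 of the transfer groups and 3.81 and 5.13 in replicate 3. Ifng, the gene deleted in the IFNg KO donors, was at 744.1, 454.7 and 764.1 there and at 11966.8, 11996.7 and 12883.8 in the IL-6 KO transfer arrays (limma adjusted p = 0.0019). Il6 was at 35.5, 40.6 and 201.1 in the IL-6 KO transfer arrays and at 7.4, 12.4 and 87 in the IFNg KO arrays, a difference of -1.12 (limma adjusted p = 1, and 0.0146 with the replicate number as a block), so Il6 does not check that label. Probe sets outside a deleted part check nothing, and the labels do not name that part.

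SKG cells held far more Cysltr1, Aqp9, Ptger2 and Ltb4r1 transcript than BALB cells, and Ptger4, Ptgir and Ptgdr2 differed little. Both Cysltr1 probe sets differed by over 4 on the log2 scale. The SKG and BALB ranges were apart for 7 of the 10 probe sets, against 27.1% of all 45037. In the fit over all probe sets, 9 members reached the filter on low values. Of these, Cysltr1 1449282_at, Ltb4r1, Ptgir and Aqp9 1421605_a_at did so only through SKG, since their BALB means were below the filter value of 4.73. As a description alone, 6 of the 9 were past the threshold as higher and 0 as lower, beside 10.3% and 9.88% of all 27022 tested probe sets. With the replicate number as a block these were 6 and 1, the lower being Ptger4, beside 14.2% and 13.6%. Nothing is read from these counts, since at least 3 of the 7 genes were chosen by a change on these arrays.

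**Figure D1:**
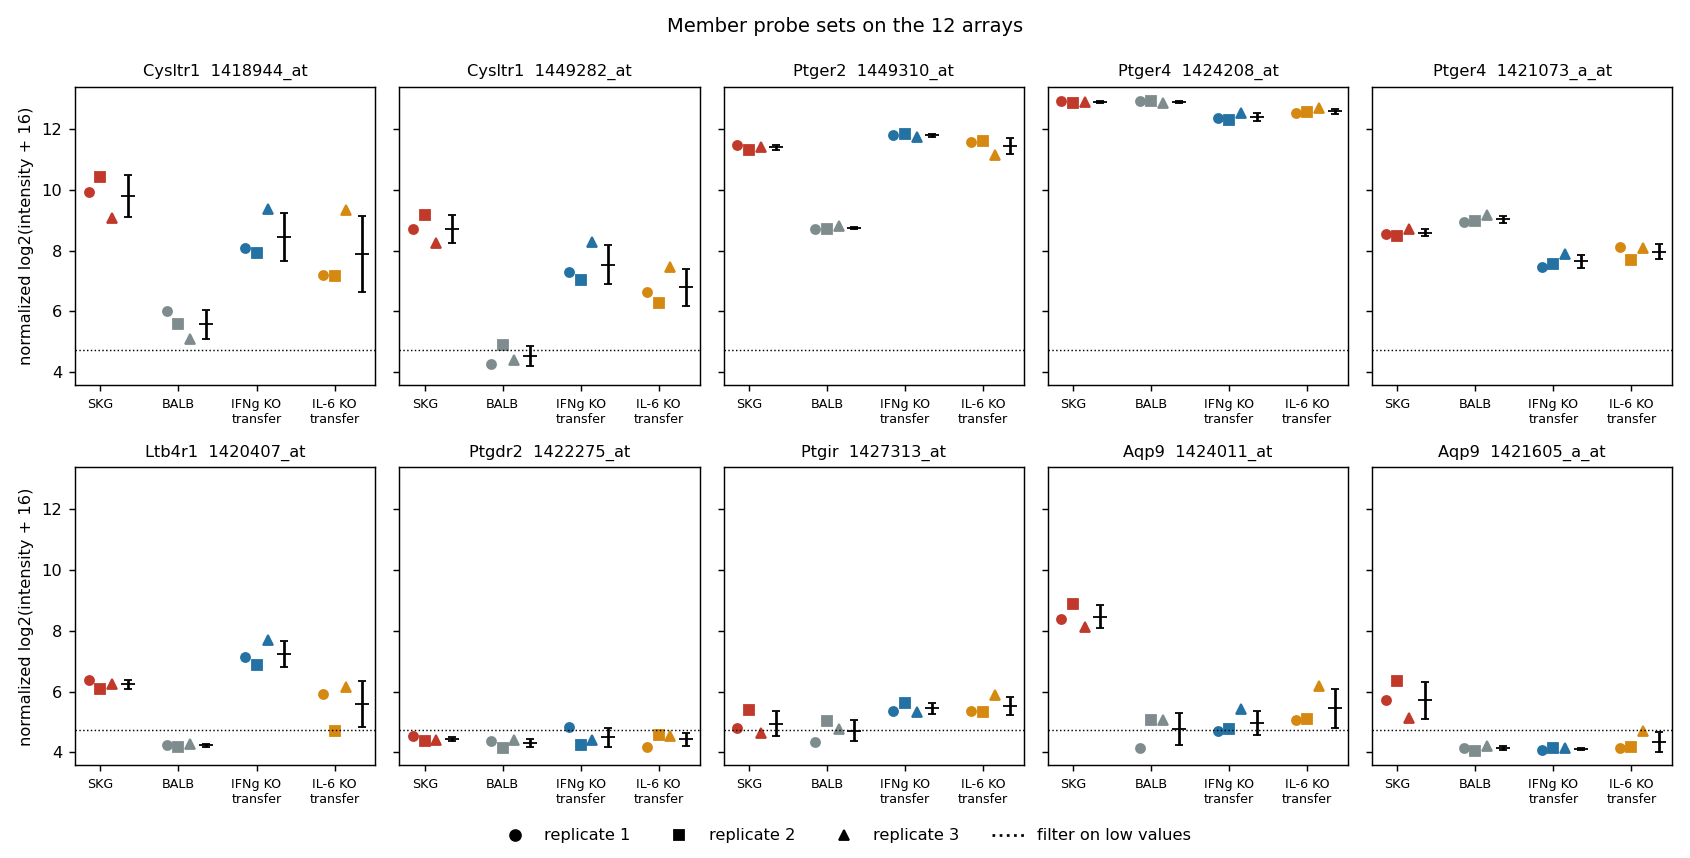
Normalized log2(intensity + 16) of the 10 probe sets on the 12 arrays by group. Each symbol is 1 array, its shape gives the replicate number, the black bar is the mean ± SD of 3 arrays and the dotted line is the filter on low values. The 3 BALB arrays lie below all other arrays for both Cysltr1 probe sets, Ptger2 and Ltb4r1, and the 3 SKG arrays lie above all others for both Aqp9 probe sets.

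Cysltr1 encodes the high-affinity receptor for leukotriene D4. Its probe set 1418944_at read 846, 1190.2 and 605.2 in SKG and 43.5, 26.9 and 26.4 in BALB. It read 264.6, 237 and 566.2 in the IFNg KO and 148.6, 137.2 and 533.9 in the IL-6 KO transfer arrays. In deposited intensity the BALB arrays were the lowest of all 12 and the SKG arrays the highest, and replicate 3 stood high in both transfer groups. The log2 means were 9.80 ± 0.69 (SD, n = 3) in SKG, 5.57 ± 0.46 in BALB, 8.45 ± 0.79 in IFNg KO and 7.89 ± 1.24 in IL-6 KO transfer. SKG exceeded BALB by 4.24 ± 0.35 (SE), an 18.8-fold difference on this scale.

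The second Cysltr1 probe set, 1449282_at, read 351, 508.6 and 337.1 in SKG, and only 2.4, 11.2 and 8.6 in BALB. It read 144, 122.8 and 257.3 in IFNg KO and 91.5, 62.5 and 134.2 in IL-6 KO transfer. The groups came in the same order as with the first probe set, with every transfer array above every BALB array and below every SKG array in deposited intensity. SKG exceeded BALB by 4.19 ± 0.27 (SE), and the Pearson correlation of both probe sets was 0.97 over the 12 arrays, which share the 4 groups. In the order SKG, IFNg KO, IL-6 KO and BALB, the normalized ranges of 1418944_at overlapped between SKG and IFNg KO and between IFNg KO and IL-6 KO, and were apart between IL-6 KO and BALB.

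Cysltr1 did not pass the test between the transfer groups. With 1418944_at, IFNg KO exceeded IL-6 KO by 0.56 ± 0.64 (SE, limma adjusted p = 1), and with 1449282_at by 0.75 ± 0.41 (limma adjusted p = 1). Blocking on the replicate number left the estimates in place and gave limma adjusted p = 0.202 for the first and 0.0329 for the second. On replicate 3 the normalized values of 1418944_at were close, at 9.35 in IFNg KO and 9.32 in IL-6 KO. The difference of 1418944_at moved when 1 of these arrays was left out. It was 1.28 without IL-6 KO replicate 3 and 0.11 without IFNg KO replicate 3. Over replicates 1 and 2 alone, which was chosen after seeing the data, it was 0.83 (limma adjusted p = 0.010), and that of 1449282_at was 0.72 (adjusted p = 0.0686). The high replicate 3 values of Cysltr1 lay on the arrays with the high Gapdh 3'/5' ratios, and the part of RNA quality in them was not tested.

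**Figure D2:**
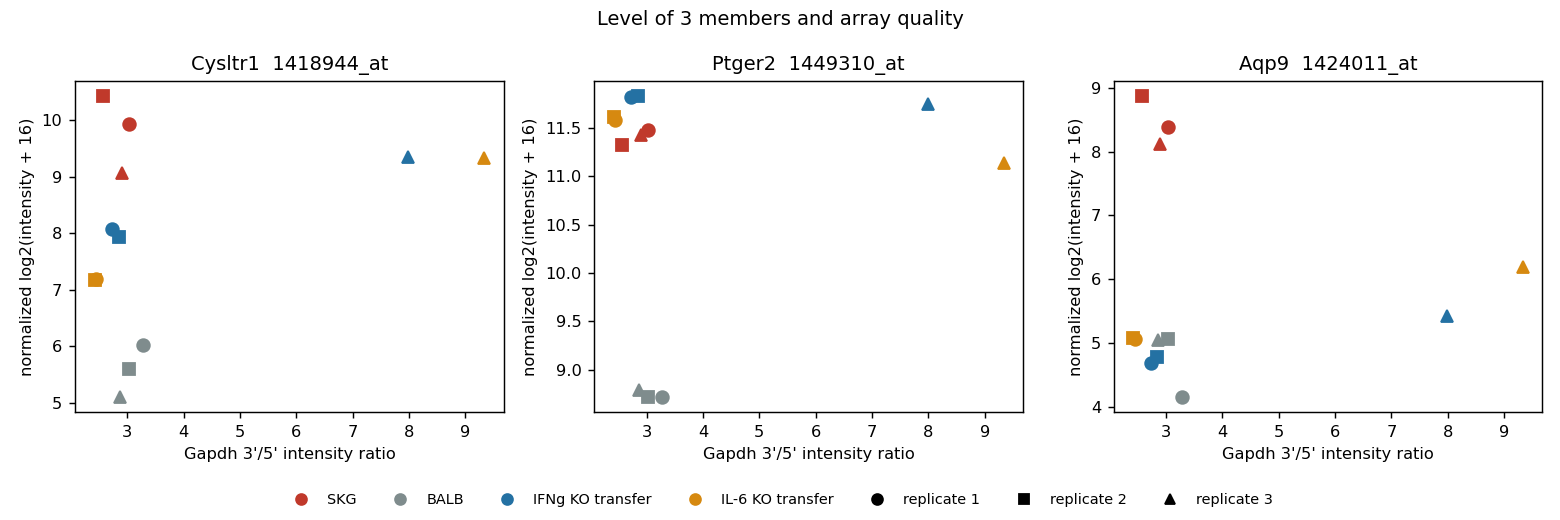
Normalized log2(intensity + 16) of Cysltr1, Ptger2 and Aqp9 (vertical axes) against the ratio of the Gapdh 3' to 5' control probe sets (horizontal axis), 1 symbol per array, coloured by group. The 2 arrays at ratios of 7.99 and 9.33 are replicate 3 of both transfer groups, which hold the highest Cysltr1 values of their groups, and SKG and BALB, whose Gapdh ratios of 2.57 to 3.28 overlap, are apart in level. The actin ratio, not plotted, does separate SKG (1.93 to 2.63) from BALB (2.95 to 3.98).

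Ltb4r1 encodes BLT1, the high-affinity receptor for leukotriene B4, which guides effector T cells into inflamed tissue. Its probe set 1420407_at read 59.1, 51.9 and 68.5 in SKG, and 2, 1.7 and 6 in BALB. It read 125.5, 109.1 and 168.6 in IFNg KO and 46.3, 9 and 48.9 in IL-6 KO transfer. BALB was near the bottom of the intensity range on all 3 arrays, and every IFNg KO array was above every array of the other groups. SKG exceeded BALB by 2.01 ± 0.20 (SE), at 6.24 ± 0.14 against 4.23 ± 0.05 (SD, n = 3).

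Between the transfer groups, Ltb4r1 was at 7.24 ± 0.42 (SD, n = 3) in IFNg KO and 5.59 ± 0.77 in IL-6 KO, with no overlap. The difference of 1.65 ± 0.40 (SE) had an unadjusted limma p of 0.00396 and did not pass over all 27022 probe sets (adjusted p = 0.717). With the replicate number as a block it passed (limma adjusted p = 0.00449). Over replicates 1 and 2 alone, a setting chosen after seeing the data, the difference was 1.69 (limma adjusted p = 0.0239). Leaving out any 1 array gave values from 1.21 to 1.92, and all 12 arrays in 1 fit gave an adjusted p of 0.0998. IL-6 KO replicate 2, at an intensity of 9, was the lowest transfer array.

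Ptger2, the EP2 receptor, read 2445.6, 2196.3 and 3307.7 in SKG and 378.3, 370.9 and 512.7 in BALB with 1449310_at. It read 3433.8, 3317.7 and 3282.8 in IFNg KO and 3319.3, 3286.2 and 2118.6 in IL-6 KO transfer. All 9 arrays outside BALB held several times the BALB level. Replicates were close, at 11.41 ± 0.08 (SD, n = 3) in SKG and 8.75 ± 0.04 in BALB, a difference of 2.66 ± 0.13 (SE) or 6.33-fold. The transfer groups were at 11.80 ± 0.04 in IFNg KO and 11.44 ± 0.27 in IL-6 KO. They were apart after normalization but overlapped in deposited intensity, and the difference of 0.35 ± 0.15 (SE) did not pass (limma unadjusted p = 0.0444, adjusted p = 1).

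Ptger4, the EP4 receptor, did not follow Ptger2. Its probe set 1424208_at read 6530.7, 6236.5 and 10065.9 in SKG and 7056.2, 6962.3 and 10388.4 in BALB. After normalization both groups were level, at 12.89 ± 0.04 and 12.90 ± 0.03 (SD, n = 3), with a difference of -0.01 ± 0.07 (SE) whose sign changed under 2 of 18 alternatives. In transfer arrays it read 4896.4, 4601.3 and 5911.3 in IFNg KO and 6056.6, 6116.6 and 6879.5 in IL-6 KO, at 12.39 ± 0.13 and 12.59 ± 0.08. The groups overlapped, and the difference of -0.19 ± 0.10 (SE) did not pass (limma adjusted p = 1).

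The other Ptger4 probe set, 1421073_a_at, read 309.7, 318.2 and 471.6 in SKG and 449.3, 448.8 and 676.1 in BALB. It was at 8.58 ± 0.12 in SKG and 9.03 ± 0.12 in BALB (SD, n = 3), with ranges apart after normalization, and the SKG minus BALB difference was -0.45 ± 0.16 (SE). It read 166.2, 183.6 and 193.7 in IFNg KO and 311.5, 211.3 and 210.3 in IL-6 KO transfer, a difference of -0.32 ± 0.21 that did not pass (limma adjusted p = 1). The group means of both Ptger4 probe sets were lower in the transfer groups than in SKG and BALB, groups that differ in stimulation, age and tissue. Over the 12 arrays, 1421073_a_at ran against Ptger2 with a Pearson correlation of -0.81, and Ltb4r1 ran with Ptger2 at 0.83, again over arrays that share the 4 groups.

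Ptgir and Ptgdr2 were dim on every array. Ptgir, the prostacyclin receptor, read 10.4, 25.7 and 10.8 in SKG, 3.3, 13.4 and 17.5 in BALB, 25.2, 37.7 and 24 in IFNg KO and 25.1, 22.6 and 38.7 in IL-6 KO with 1427313_at. All groups overlapped with their neighbours in level. The differences were 0.23 ± 0.29 (SE) for SKG minus BALB and -0.09 ± 0.22 between the transfer groups (limma adjusted p = 1), and the sign of the second changed under 4 of 17 alternatives. Ptgdr2, the prostaglandin D2 receptor known as a Th2 marker, did not exceed 12.8 on any array. It stayed below the filter in both comparisons with 1422275_at, and its group means differed by 0.14 and 0.07.

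Among the members, Aqp9 alone was high in SKG and low in the other 3 groups. Its probe set 1424011_at read 274.1, 414.3 and 303.2 in SKG and 1.3, 14.4 and 25 in BALB. It read 9.7, 12.7 and 26.2 in IFNg KO and 17, 16.4 and 50.4 in IL-6 KO transfer. The 3 SKG arrays were all far above the highest of the other 9. SKG was at 8.46 ± 0.38 and BALB at 4.75 ± 0.52 (SD, n = 3), a difference of 3.70 ± 0.29 (SE), which was 3.40 without BALB replicate 1, the array with another sort and tissue. The transfer groups overlapped at 4.96 ± 0.40 and 5.44 ± 0.64, and their difference of -0.48 ± 0.36 did not pass (limma adjusted p = 1).

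The second Aqp9 probe set, 1421605_a_at, was dimmer and again high in SKG alone. It read 32.2, 63.6 and 21.5 in SKG, 1.3, 0.5 and 4 in BALB, 0.7, 1.7 and 1.6 in IFNg KO and 1.4, 1.7 and 10 in IL-6 KO transfer. SKG exceeded BALB by 1.58 ± 0.31 (SE), and the probe set was too dim to be tested between the transfer groups. In both Aqp9 and both Cysltr1 probe sets SKG replicate 2 was the highest SKG array and SKG replicate 3 the lowest after normalization. Of all 45037 probe sets, 1.71% were higher on the 3 SKG arrays than on each of the other 9, among them both Aqp9 probe sets. In 6.99% the 3 BALB arrays were below each of the other 9, among them both Cysltr1 probe sets, Ptger2 and Ltb4r1.

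Between the transfer groups 8 member probe sets were tested and 0 passed by limma in either direction, where 0.0444% of all probe sets passed (0.0259% higher in IFNg KO and 0.0185% lower, 12 of 27022 in all, and 1105 with an unadjusted p below 0.05). Of the members, Ptger2 and Ltb4r1 had an unadjusted p below 0.05. Blocking on the replicate number made 2 members pass as higher in IFNg KO, Ltb4r1 and the Cysltr1 probe set 1449282_at, and 0 as lower, where 0.511% of all probe sets were higher and 0.603% lower, 1.11% in all. The ranges were apart after normalization for 2 of 10 members, against 9.89% of all. The median member difference was -0.0057, and 0.0015 over all tested probe sets.

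**Figure D3:**
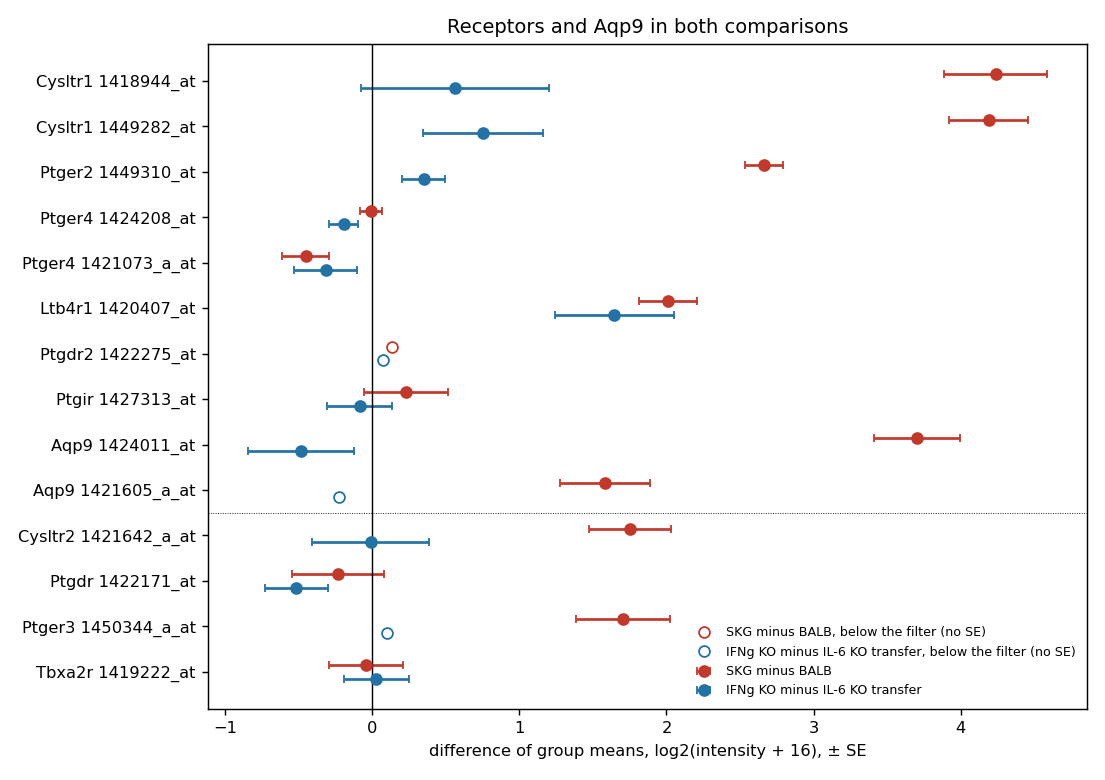
Differences of group means ± SE in log2(intensity + 16) for the 10 member probe sets and, under the dotted line, 4 other eicosanoid receptors, with SKG minus BALB in red and IFNg KO minus IL-6 KO transfer in blue. Open symbols were below the filter and have no SE. Both Cysltr1 probe sets, Ptger2, Ltb4r1, both Aqp9 probe sets, Cysltr2 and Ptger3 lie to the right of 0 in SKG minus BALB, and the Ltb4r1 difference of 1.65 is the largest between the transfer groups.

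The remaining receptors of the family were taken as a list of 8 genes, of which 4 could be tested in SKG and BALB. Of these, 2 rose in SKG, Cysltr2 and Ptger3, and 0 fell, where 14.4% of 12079 tested genes rose and 10.7% fell. With the replicate block the counts were the same, where 19.2% rose and 14.1% fell. Cysltr2, the other cysteinyl leukotriene receptor, read 162, 229.8 and 214.5 in SKG and 64.8, 53 and 37.1 in BALB. The groups were apart, and the difference of 1.75 ± 0.28 (SE, limma adjusted p = 0.00286) kept its call under all 18 alternatives. Ptger3, the EP3 receptor, which lowers cyclic AMP through Gi, read 37.9, 90.4 and 38.3 in SKG and 3.7, 8.5 and 1.1 in BALB. It was higher by 1.71 ± 0.32 (SE, limma adjusted p = 0.00598). Its BALB level was near background, below the filter, so it was tested through its SKG level alone and could only be called as higher. The count of 2 is therefore not read as a result about the list. The size of the Ptger3 difference ran from 0.77 to 3.44 over 17 alternatives. In the transfer arrays Cysltr2 differed by -0.01 ± 0.40 (SE, limma adjusted p = 1) and Ptger3 was too dim to be tested. The transfer values were at most 117.2 for Cysltr2 and 18.9 for Ptger3. On the 3 SKG arrays Cysltr2 and Ptger3 were thus above each of the other 9, as Aqp9 was and as were 1.71% of all probe sets. Ptgdr, the DP1 receptor, and Tbxa2r, the thromboxane receptor, differed by -0.23 ± 0.31 and -0.04 ± 0.25 between SKG and BALB and did not pass (limma adjusted p = 0.665 and 0.935).

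The counts of the lists that follow stand beside 14.4% of all tested genes higher and 10.7% lower in SKG, or 19.2% and 14.1% with the replicate block, and are not read as particular to a list. Of 7 tested genes of leukotriene synthesis and removal 0 passed in SKG against BALB, with a median of -0.10, among them Alox5, the 5-lipoxygenase, at -0.10 ± 0.22 (SE) and Alox5ap, its activating protein, at -0.33 ± 0.29 (limma adjusted p = 0.8 and 0.474). Ltc4s, the leukotriene C4 synthase, was below the filter. Of 6 phospholipases A2 0 passed, with a median of -0.36. Of 11 genes of prostanoid synthesis and removal 2 rose and 1 fell. Abcc4, a transporter that exports prostaglandins, rose from 61.5, 75.2 and 88.6 in BALB to 206, 218.1 and 236.8 in SKG, by 1.44 ± 0.17 (SE, limma adjusted p = 0.000888). Ptgr2, a prostaglandin reductase, rose by 1.21 ± 0.32 (limma adjusted p = 0.0274, lost without SKG replicate 1 at 0.103 and without SKG replicate 2 at 0.0998), and Cbr1, a carbonyl reductase, fell by 0.92 (limma adjusted p = 0.00802). Ptgs2, the inducible cyclooxygenase, differed by -0.01 ± 0.24 and Ptges, a prostaglandin E synthase, by 0.32 ± 0.37 (limma adjusted p = 0.978 and 0.599).

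Among genes of cyclic AMP signalling, 2 of 24 rose and 4 fell in SKG, where 14.4% of all genes rose and 10.7% fell, with a median of -0.08, and 3 and 6 with the replicate block. Adcy6, an adenylyl cyclase, read 8.8, 6.3 and 30.1 in SKG and 92, 100.7 and 96.2 in BALB and fell by 1.92 (SE 0.27, limma adjusted p = 0.00164). The phosphodiesterases Pde4d and Pde8a, which break cyclic AMP down, fell: Pde4d fell by 1.02 (limma adjusted p = 0.0216) and Pde8a fell by 1.13 (0.0197). Leaving out single arrays raised the adjusted p to as much as 0.0843 for Pde4d and 0.0812 for Pde8a. Creb1, a transcription factor that cyclic AMP activates, rose by 1.02 ± 0.15 (SE, limma adjusted p = 0.0018), and its 5 tested probe sets differed by 0.28 to 1.02. Pde4b was at -0.56 ± 0.19 (limma adjusted p = 0.0711, and 0.00444 with the block).

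On the Gq and calcium side, through which the cysteinyl leukotriene receptors act, 3 of 12 genes rose and 2 fell in SKG, again beside 14.4% and 10.7% of all genes, with a median of 0.16. Gnaq, the Gq alpha subunit, read 299.7, 359.7 and 354.9 in SKG and 95.7, 94.3 and 138.9 in BALB. It rose by 1.56 ± 0.17 (SE, limma adjusted p = 0.000553), although its 6 tested probe sets differed by 0.03 to 1.56. Plcb4, a phospholipase C, rose by 1.10 ± 0.25 (limma adjusted p = 0.0147), and Itpr2, an inositol trisphosphate receptor, by 0.90 ± 0.18 (adjusted p = 0.00802, and 0.0605 without normalization, with probe sets from -0.33 to 0.97). Prkcd, a protein kinase C, fell by 1.25 (limma adjusted p = 0.00194), and its other tested probe set was at -1.22.

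Of the other aquaporins, 0 of 5 tested passed in SKG against BALB, with a median of 0.12. Aqp3, which also passes glycerol, differed by 0.12 ± 0.24 (SE, limma adjusted p = 0.787). Of 15 genes of glycerol and triglyceride metabolism 1 rose and 4 fell, beside the same 14.4% and 10.7%, with a median of 0.07, and 3 and 5 with the replicate block. Gpam, which starts glycerolipid synthesis from glycerol 3-phosphate, rose by 1.68 ± 0.18 (SE, limma adjusted p = 0.000511), while its other tested probe set was at -0.22. Agpat2, the next acyltransferase of that route, fell by 1.06, and the phosphatidate phosphatases also fell, Lpin1 at -0.81 and Lpin2 at -0.62 (limma adjusted p = 0.0299, 0.0125 and 0.0182). All 3 falls lost their call without SKG replicate 1 (adjusted p from 0.0527 to 0.115).

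Over all 8 lists, 10 of 84 tested genes rose and 11 fell in SKG, with a median of -0.03 against 0.06 over all tested genes, which is near the background of all genes in both directions. The rising and falling counts became 8 and 5 when SKG replicate 1 was left out, 9 and 5 for SKG replicate 2, and 9 and 4 for BALB replicate 1. Between the transfer groups 0 of 85 passed by limma, against 0.0489% of 12259 genes higher and 0.0408% lower. With the replicate block 0 were higher and 2 were lower in IFNg KO, Ptgs2 and Crem, against 0.636% and 0.905% of genes. Ptgs2 read 1.6, 22.3 and 39.3 in IFNg KO and 31, 90.9 and 71.7 in IL-6 KO transfer, a difference of -1.23 ± 0.48 (SE, limma adjusted p = 1, and 0.0246 with the block). Crem, a cyclic AMP-responsive transcription factor, differed by -0.56 ± 0.55 (adjusted p = 1, and 0.0329 with the block).

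**Figure D4:**
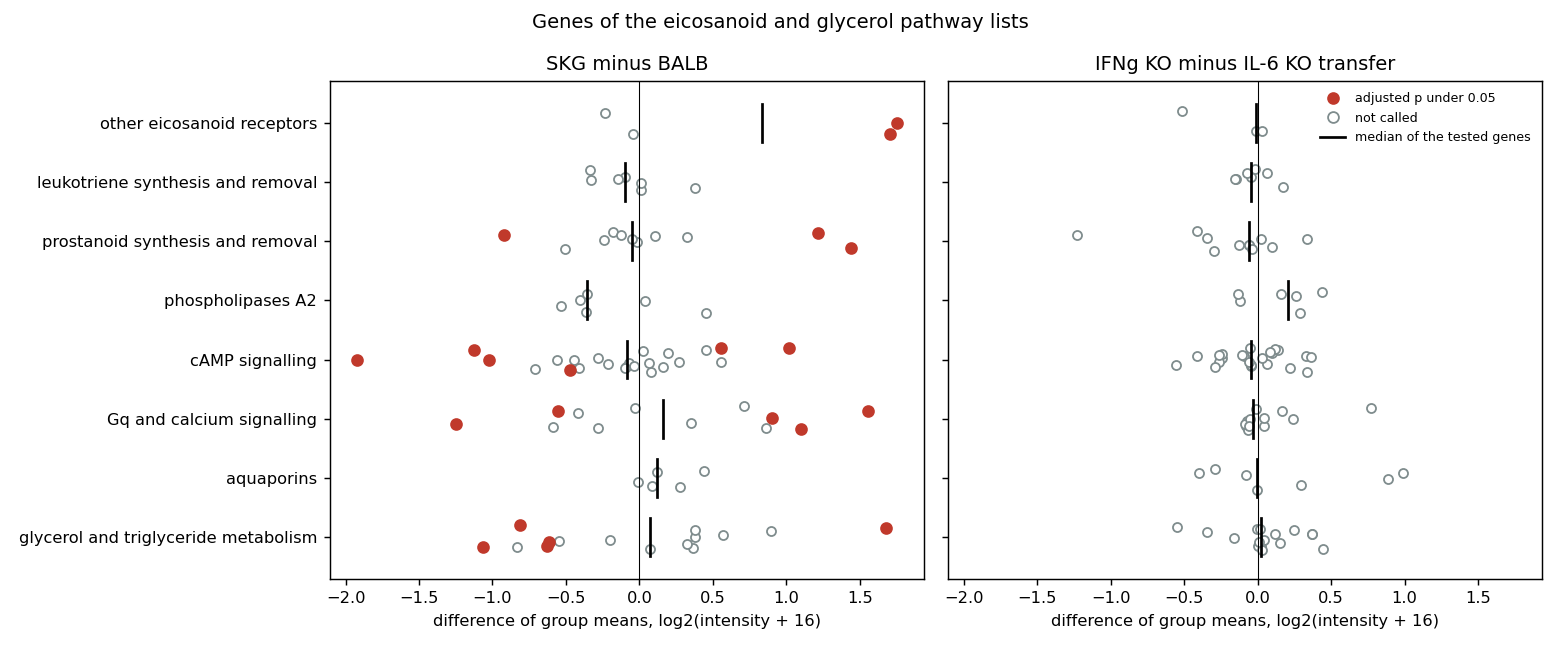
Differences of group means in log2(intensity + 16) for the tested genes of the 8 pathway lists (vertical axis), 1 symbol per gene at its brightest probe set, SKG minus BALB on the left and IFNg KO minus IL-6 KO transfer on the right. Red symbols passed limma at an adjusted p under 0.05 and black bars are list medians: 21 genes are red on the left, among them Cysltr2 and Ptger3 in the top row, and 0 on the right.

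Since Aqp9, Cysltr1, Cysltr2 and Ltb4r1 are also known from myeloid cells, markers of other cell types were read on the same arrays. Cd4 was at 69.7 to 497.8 and Cd3d at 1351.5 to 1970.2 over the 12 arrays, and of 7 tested CD4 T cell markers 0 rose and 2, Cd5 and Lat, fell in SKG. With the replicate block 1 rose and 2 fell, where 19.2% of all genes rose and 14.1% fell. Cd3g was at 1246.9 to 1982.3 in SKG and 637.3 to 1106.5 in BALB, with no overlap. Of the tested markers of neutrophils (5), macrophages and monocytes (7), dendritic cells (5), B cells (7) and platelets (3), 0 passed by limma in either direction between SKG and BALB. With the replicate block 1 macrophage and monocyte marker was lower in SKG, and in the other lists of these 0 passed. Eosinophil and NK cell markers were below the filter. The summed intensity of the 9 neutrophil markers was 73.6 to 118.4 in SKG and 82.6 to 192.3 in BALB. In SKG, S100a9 was at 0.6 to 0.9 and Ngp at 28.3 to 35.6. The macrophage and monocyte sum was 154.6 to 203.4 in SKG and 167.3 to 314.2 in BALB, with Marco and C1qa at or below 1.7 in both. Within this list Cd14 was at 26.4 to 32.5 in SKG and 5.8 to 26.3 in BALB. Cd68 went the other way, at 34.3 to 57.3 in SKG and 72.7 to 95.3 in BALB. The part of such cells in the member differences was not tested. The dendritic cell sum of 7 markers was higher in SKG with no overlap, at 111.5 to 140.2 against 96.1 to 103.5, with Zbtb46 at 0.75 ± 0.24 (SE, limma adjusted p = 0.0548) and Itgax at 0.12 ± 0.23 (0.77), and its part in the member differences was not tested. Of the tested mast cell and basophil markers, Kit was lower in SKG by limma, at 84.7 to 153.4 against 266.2 to 407.3 in BALB, and Hdc, at 47.3 to 105.6 against 10.9 to 78.2, did not pass. Of the CD8 T cell markers, Cd8b1 was lower, at 10 to 95.7 against 208.4 to 278.9, and Cd8a, at 15.3 to 46.9 against 7 to 15.3, did not pass. The summed markers were 197.6 to 260.3 in SKG and 370.1 to 476 in BALB for mast cells and basophils, and 25.3 to 142.6 and 217.3 to 285.9 for CD8 T cells, while those of B cells (246 to 298.2 and 77.2 to 449.2) and platelets (102.1 to 142.1 and 92.4 to 252.4) overlapped. In bulk samples fewer expressing cells and less RNA per cell cannot be told apart.

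In the transfer arrays the neutrophil sum was uneven. It was 192.1, 65.3 and 1443.5 in IL-6 KO and 150.8, 495.6 and 371 in IFNg KO, and S100a8 reached 800.4 in IL-6 KO replicate 3. Aqp9 had its highest transfer value, 50.4, on that array, and its lowest transfer values on IFNg KO replicates 1 and 2. Its values of 17, 16.4 and 50.4 in IL-6 KO came in the order of the sum, and its 9.7, 12.7 and 26.2 in IFNg KO did not. Ltb4r1, at 46.3, 9 and 48.9 in IL-6 KO, came in the order of the sum there, and its 125.5, 109.1 and 168.6 in IFNg KO did not. The part of neutrophils in these Aqp9 and Ltb4r1 values was not tested.

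The genes whose brightest probe set followed each member most closely over the 12 arrays were sought among 12906 genes, by Pearson correlation of log2 values. For Cysltr1 these were Akt2 (0.98), Zfp445 (0.97), Fpgt (0.97), Dis3l2 (0.97) and Akr1c13 (0.96). Aqp9 was followed by St3gal6 (0.97), Tm6sf1 (0.95), Ndnf (0.94), Rab20 (0.94) and Hs6st2 (0.94). For Ptger2 they were Trpm6, Psma3, Gpam, Mdfic and Taf2, each at 0.99. Gpam, also in the glycerol list, was at 7.01 in BALB against 8.68 to 8.95 in the other groups. The 12 arrays form 4 groups, so these values mainly compare group means and say nothing of shared function.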

How the data were processed

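CD4+ T cell RNA was measured on 12 one-colour arrays in 4 groups of 3. RNeasy columns and biotin labelling by in vitro transcription were used, per the labels' protocols. The deposited values are linear intensities per probe set; what software and scaling the authors used is not given in the sources used here. From them, 64 control probe sets were removed, log2(intensity + 16) was taken and the 12 arrays were quantile normalized together. The model (lmFit, eBayes with intensity trend, two-sided) was fitted to the 6 arrays of a comparison by limma 3.58.1, run in R 4.3.3. A probe set was tested where its mean reached the 40th percentile, and Benjamini-Hochberg adjustment over all tested probe sets was used at 0.05. The fit was tested on simulated data.

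The probe annotation, in part old, named 1 gene for 34945 probe sets, several for 932 and none here for 9160, and 34741 were matched by gene ID to GRCm38.p6. A gene in a list is its brightest probe set over the 12 arrays. The members, and the lists, were chosen with earlier results of these data known. Named are all members, up to 4 genes per list with the smallest p, a fixed set of enzymes and receptors, and the 5 nearest neighbours of Cysltr1, Aqp9 and Ptger2.

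Same-numbered arrays deviated together from their group means (correlations of 0.15, 0.17 and 0.35 for SKG and BALB, and 0.43, 0.41 and 0.68 for the transfer groups). The main fit used no pairing, and the numbers served as pairs only in the alternative with the replicate block. Replicates 1 and 2 correlated across groups about as well (0.19 and 0.15, 0.42 and 0.38), so these values do not show that the numbers 1 and 2 are pairs. Whether replicates are separate animals is not labelled: p-values then reflect only the spread of these arrays, which may be technical. The number of arrays limits the precision. Alternatives were other constants (1, 64), filters, normalizations, 1 probe set per gene, no trend, 1 fit of all arrays, the block and leaving out arrays.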

Additional observations from a re-analysis of the deposited data

How the results depend on the processing

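No called result reversed. Of 352 alternative values of the member probe sets, 335 counted as unchanged. Between SKG and BALB, and for transfer probe sets below the filter, this meant a move of less than 1 SD. For tested transfer probe sets it meant the same side of the threshold, whatever the sign or size of the difference. With log2(intensity + 1), SKG exceeded BALB by 4.03 for Ltb4r1, 0.56 for Ptgdr2 and 5.12 for Aqp9, and with the second probe sets by 5.81 for Cysltr1 and 3.88 for Aqp9, whose second probe set was at -0.96 between the transfer groups. With log2(intensity + 64) the differences were 3.30 for Cysltr1, 2.53 for Ptger2, 0.89 for Ltb4r1 and 2.40 for Aqp9 (second probe sets 2.72 for Cysltr1 and 0.64 for Aqp9), and without normalization Ptger4 was at -0.11. Between the transfer groups the replicate block gave 1.65 for Ltb4r1 (limma adjusted p = 0.00449) and 0.75 for Cysltr1 1449282_at (0.0329). Replicates 1 and 2 alone, a setting chosen after seeing the data, gave 1.69 for Ltb4r1 (limma adjusted p = 0.0239) and 0.83 for Cysltr1 1418944_at (0.010). Between SKG and BALB the block put Ptger4 1421073_a_at past the threshold as lower, at -0.45, and it changed no other member call among those tested.

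The 5442 probe sets called between SKG and BALB became 3101 without normalization, 3327 with 1 probe set per gene, 9032 with replicates 1 and 2 alone, and 2953 to 6479 without 1 array (2953 without SKG replicate 1, 2956 without SKG replicate 2 and 3167 without BALB replicate 1). The 21 pathway genes called became 13 without normalization and 13 to 25 without 1 array. Between the transfer groups, 12 probe sets became 7 without the trend, 39 with all 12 arrays in 1 fit, 301 with the block, 725 with replicates 1 and 2 alone and 2 to 36 without 1 array (36 without IL-6 KO replicate 3, 2 without IFNg KO replicate 1 or 2 or IL-6 KO replicate 1, and 4 without IL-6 KO replicate 2). The share higher in IFNg KO was 58.3%, 66.7% without normalization and 69.2% with arrays scaled to a trimmed mean. Pathway genes went from 0 to 2 with the block, 3 with replicates 1 and 2 alone and 0 without 1 array. The cause of these shifts was not tested, beyond the fewer arrays or probe sets some alternatives hold. With the 60th percentile filter Ptgir and Aqp9 1424011_at had no value in the transfer groups. Signal near background limits Ptgdr2, Ptgir and the low groups of Aqp9 and Ltb4r1.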

Other observations

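Replicate 3 of both transfer groups, which has the high Gapdh 3'/5' ratio, also held higher intensities of several genes next to Cysltr1. Crem read 568.9, 554.8 and 1741.8 in IFNg KO and 1014.7, 994.4 and 2283.2 in IL-6 KO transfer. Pde4b, a phosphodiesterase of cyclic AMP, read 638.6, 583.7 and 2869 in IFNg KO and 697.9, 687.9 and 2510.4 in IL-6 KO. Cysltr2 read 51.1, 51.5 and 117.2 in IFNg KO and 51.2, 62.8 and 95.5 in IL-6 KO. Abcc4 ran the other way, at 506.3, 642.4 and 153.4 in IFNg KO and 618.9, 614 and 185.7 in IL-6 KO. No label sets replicate 3 apart from replicates 1 and 2.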
